A study of Homo sapiens with 6 samples.

Results

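CDK12, CDK13 and CCNK are the 3 genes described here, out of 57905 genes in the count table and 16622 that were tested. They were chosen as listed members, as the further kinases to which THZ1 binds covalently and their cyclin, by gene symbol and Ensembl identifier, under a rule that uses no measured value. RNA-SEQ was done on NALM6, a line of human B-cell precursor leukemia cells. In all, 6 libraries were analyzed, 3 of cells given the solvent DMSO and 3 of cells given THZ1 at 500 nM, each for 24 h. THZ1 is a covalent inhibitor made against CDK7, and the cells of both groups are of the same line without any further genetic change named in the labels. Nothing in the labels says whether the 3 libraries of a treatment came from separate cultures, so the p-values measure the spread between these libraries, which may be technical.

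CDK12 and CDK13 are close relatives among the cyclin-dependent kinases, and each becomes active by binding cyclin K, the product of CCNK. Both kinases phosphorylate the C-terminal tail (CTD) of the largest subunit of RNA polymerase II, a run of repeats on which elongation, RNA processing and termination factors assemble. CDK12 is known above all for keeping up the expression of genes of homologous recombination and the Fanconi anemia pathway, many of which are long, by preventing the use of polyadenylation signals inside introns. Cyclin K is also known to be lost as a protein under some CDK12 ligands, which RNA measurements do not show.

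The protein-coding gene CDK12 (ENSG00000167258) lies on chromosome 17 from 37617739 to 37723812 of GRCh37, CDK13 (ENSG00000065883) on chromosome 7 from 39989720 to 40139179, and CCNK (ENSG00000090061) on chromosome 14 from 99947506 to 100001381, each on the forward strand. CDK12 and CDK13 encode related kinase domains, so their coding letters were compared to see whether reads could be assigned to the wrong gene. Only exact matches within the coding sequences were searched, so the untranslated parts and matches with mismatches were not covered. The longest run that the canonical coding sequences of 4470 and 4536 bases share is 25 bases long, and it is printed as the longest such match:
CDK12 and CDK13: tggatttcaagaaggacaaaggtgc
In CDK12 this run lies between 37650927 and 37657506 on chromosome 17, and in CDK13 between 40041610 and 40085438 on chromosome 7, in both genes across an exon junction. No word of 50 bases was common to the coding sequences of the 2 kinases (0 shared words), nor to those of either kinase and CCNK, whose longest shared runs were 13 bases. The case was different for CDK11A and CDK11B, used below for comparison, which share a run of 709 bases, and 60.5% of the 50-base words of CDK11A are found in CDK11B.

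The promoters are shown as a description of the 3 genes, and whether they bear on the changes with THZ1 was not tested. The RefSeq sequences of GRCh38.p14 cover 250 bases before and 50 after the start site on the forward strand, and capitals mark matches to any of 7 motifs searched on both strands and named below, which were chosen with these promoters in view. The windows are chr17:39461236-39461535 for CDK12, chr7:39950006-39950305 for the first of the start sites listed for CDK13, and chr14:99481159-99481458 for CCNK:
CDK12: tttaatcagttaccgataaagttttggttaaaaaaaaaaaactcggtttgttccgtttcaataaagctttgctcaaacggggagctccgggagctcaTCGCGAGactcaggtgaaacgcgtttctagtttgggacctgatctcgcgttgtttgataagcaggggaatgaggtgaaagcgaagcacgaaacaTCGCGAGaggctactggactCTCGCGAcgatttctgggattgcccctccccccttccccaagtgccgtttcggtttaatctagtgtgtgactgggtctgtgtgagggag
CDK13: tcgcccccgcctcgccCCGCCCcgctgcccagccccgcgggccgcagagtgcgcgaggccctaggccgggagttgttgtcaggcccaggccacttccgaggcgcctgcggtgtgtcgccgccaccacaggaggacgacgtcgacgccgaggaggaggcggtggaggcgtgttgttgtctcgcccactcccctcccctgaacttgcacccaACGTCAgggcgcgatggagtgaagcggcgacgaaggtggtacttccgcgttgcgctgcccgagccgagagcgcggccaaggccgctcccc
CCNK: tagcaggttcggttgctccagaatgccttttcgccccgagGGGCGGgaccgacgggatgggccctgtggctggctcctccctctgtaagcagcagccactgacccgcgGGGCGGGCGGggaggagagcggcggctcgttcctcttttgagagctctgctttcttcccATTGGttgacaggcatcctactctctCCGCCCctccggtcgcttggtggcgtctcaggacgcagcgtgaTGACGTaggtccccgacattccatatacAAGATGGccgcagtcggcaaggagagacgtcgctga
The CDK12 window held 49.0% G and C, against 72.7% for CDK13 and 63.3% for CCNK and a median of 58.7% over 35116 promoters. CTCGCGA occurred at 3 places in the CDK12 window, with first bases at −153, −59 and −39 from the start site, and it occurs in 2.35% of all promoters. It was found in neither of the other windows. GGGCGG, found in 45.0% of all promoters, occurred at 4 places in the CCNK window, 2 of them overlapping, and at 1 place in the CDK13 window. TGACGT, found in 7.98% of all promoters, occurred once each in the windows of CDK13 and CCNK. CCNK also held CCAAT (34.6% of all promoters) and AAGATGG (5.84%) once each, and TATAAA (11.5%) and CACGTG (7.26%) were in none of the 3 windows. No motif searched was thus shared by all 3 windows, and a match is only a description of the letters.

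The libraries held 11015480 to 11164840 counts with DMSO and 7876402 to 8314306 with THZ1. Replicate libraries differed by more than sampling noise (mean chi-square per gene from 1.77 to 8.58), and each was kept as a replicate. Of 10 B cell precursor markers found in the table, all held at least 100 counts in every library. CPM are counts scaled to a common library size, by TMM unless stated otherwise. Without TMM, the summed level of these markers was 4290 to 4308 CPM with DMSO and 1916 to 1978 with THZ1. The part of this level in the results below was not tested. On the same scale without TMM, the summed levels of the T cell (0 to 0.889), erythroid (0.0905 to 0.481), myeloid (4.21 to 16.5) and fibroblast (3.45 to 14.7) markers were low in all libraries. The myeloid and fibroblast sums were higher with THZ1. HBB and HBA1, CD3D, CD3E and CD2, FCGR3A, and COL1A2 and DCN were at or under 3 counts everywhere.

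CDK12, CDK13 and CCNK were all higher with THZ1 relative to the rest of the transcriptome, by 1.47-, 1.60- and 1.67-fold. All 3 were called by the quasi-likelihood test of edgeR (Benjamini-Hochberg adjusted p-value below 0.05 over the genes tested), where 43.5% of all genes tested were called higher. The changes were moderate among these libraries. Of all genes tested, 61.9% had a lower log2 fold change than CDK12, 64.3% than CDK13 and 65.3% than CCNK, and the middle 50% of all genes lay between −0.90 and 1.46. None of the 3 reached a log2 fold change of 1.5, a size at which 24.6% of all genes were called higher.

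CDK12, which held more counts than CDK13 in every library, had 109, 128 and 89.5 CPM in DMSO replicates 1 to 3 and 164, 159 and 157 CPM in THZ1 replicates 1 to 3. Every THZ1-treated library was above every DMSO-treated one, and the DMSO-treated libraries were spread more widely. The means were 109 ± 19.2 and 160 ± 3.67 CPM (SD, n = 3 libraries each), and the log2 fold change was 0.55 (SE 0.09, 95% interval 0.38 to 0.73, adjusted p = 9.1e-07). The coefficient of variation of CDK12 was 17.6% with DMSO, where counting alone gives 2.76%, and 2.30% with THZ1, where counting alone gives 2.90%. Without DMSO replicate 3, the lowest library, the log2 fold change of CDK12 was 0.41, and without DMSO replicate 2, the highest of that group, it was 0.66.

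CDK13, the second kinase, had 61.2, 60.2 and 53.2 CPM in DMSO replicates 1 to 3 and 91.4, 97.0 and 90.4 CPM in THZ1 replicates 1 to 3. The groups did not overlap, and the gap between the highest DMSO-treated and the lowest THZ1-treated library was 0.56 on the log2 scale, against 0.29 for CDK12. The means were 58.2 ± 4.36 and 92.9 ± 3.59 CPM (SD, n = 3), and the log2 fold change was 0.68 (SE 0.08, 95% interval 0.52 to 0.83, adjusted p = 5.1e-09). The deposited log2(FPKM + 1) values gave a smaller change of 0.21 by limma (adjusted p = 0.0326), and the cause of this gap was not tested.

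CCNK, the cyclin on which both kinases depend, had 66.9, 76.6 and 68.0 CPM in DMSO replicates 1 to 3 and 115, 118 and 121 CPM in THZ1 replicates 1 to 3. It was again higher in all THZ1-treated libraries. The means were 70.5 ± 5.33 and 118 ± 3.23 CPM (SD, n = 3), and the log2 fold change was 0.74 (SE 0.08, 95% interval 0.59 to 0.89, adjusted p = 2.7e-10). Such a gap between the groups was no rarity, since every THZ1-treated library lay above every DMSO-treated one for 43.4% of all genes tested. On the opposite strand, exons of CCDC85C cover 84.8% of the canonical CCNK exons in the annotation used, and the strand setting of the counting is not given in the sources used here. CCDC85C held 135 to 369 counts per library and was lower with THZ1 (log2 fold change −0.62, adjusted p = 6.4e-06), opposite to CCNK. The exons of CDK12 and CDK13 were shared with no other gene of that annotation.

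**Figure D1:**
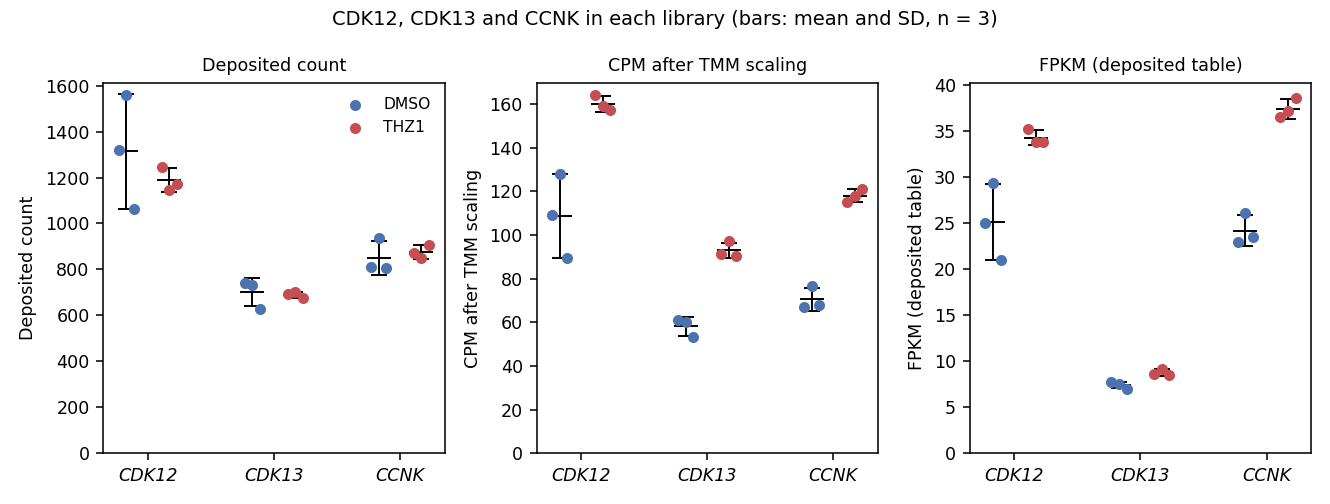
Values of CDK12, CDK13 and CCNK in each of the 6 libraries as deposited counts (left), CPM after TMM scaling (middle) and FPKM from the deposited expression table (right), with blue points for DMSO, red points for THZ1 and bars for the mean and SD of 3 libraries. The counts of the treatments overlap for each gene, whereas the CPM and FPKM values do not, and the CDK12 counts with DMSO spread from 1061 to 1561.

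The rise was relative to the other genes of a library. As deposited, CDK12 had 1321, 1561 and 1061 counts with DMSO and 1247, 1146 and 1174 with THZ1. CDK13 had 740, 734 and 630 counts with DMSO and 695, 701 and 676 with THZ1. CCNK had 809, 935 and 806 counts with DMSO and 872, 849 and 906 with THZ1. For each gene the 3 counts with THZ1 fell inside the range of the counts with DMSO, from libraries that were smaller in total with THZ1. The amount of RNA per cell was not measured in these files. A difference in sequencing depth, less RNA per cell, fewer cells and a change in the other genes therefore cannot be told apart. With library sizes alone the log2 fold changes of CDK12, CDK13 and CCNK were 0.30, 0.43 and 0.49, and the median of all genes was shifted by −0.25 against TMM. With upper quartile factors they were 0.75, 0.87 and 0.93, at a shift of 0.19. Set against the median gene, the log2 change was 0.53 for CDK12, 0.65 for CDK13 and 0.71 for CCNK with TMM. With library sizes alone it was 0.52, 0.65 and 0.71, a likeness that follows from the subtraction, since a rescaling shifts all genes nearly alike. With limma on FPKM plus 1 it was 0.70 for CDK12, 0.46 for CDK13 and 0.86 for CCNK.

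Whether the 3 genes moved by different amounts was asked from ratios of counts within each library, which do not depend on the scaling. CDK12 gave 64.1, 68.0 and 62.7% of the counts of both kinases with DMSO and 64.2, 62.0 and 63.5% with THZ1, so that the groups overlapped. The log2 ratio of CDK13 to CDK12 was −0.89 ± 0.18 with DMSO and −0.78 ± 0.07 with THZ1 (SD, n = 3 each), a difference of 0.11 (SE 0.11, exact permutation p = 0.5). For CCNK to CDK12 the log2 ratio was −0.61 ± 0.19 and −0.44 ± 0.07, a difference of 0.17 (SE 0.12, exact permutation p = 0.3). For CCNK to CDK13 it was 0.28 ± 0.13 and 0.34 ± 0.07, a difference of 0.06 (SE 0.09, exact permutation p = 0.7). All 3 adjusted p-values were 0.7, and 3 libraries against 3 cannot give a two-sided p below 0.1. The larger fold change of CCNK than of CDK12 was thus within the spread between the libraries. In the deposited FPKM values the ratio of CDK13 to CDK12 moved the other way, by −0.22, and the ratio of CCNK to CDK13 by 0.39.

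Levels per length were compared in FPKM, which the authors' table holds on a log2 scale and which were taken back to a linear scale. With DMSO, CDK12 had 25.1 ± 4.19 FPKM, CCNK 24.2 ± 1.70 and CDK13 7.41 ± 0.373 (SD, n = 3). CDK12 and CCNK did not differ beyond their spread, while CDK13 was lower than both in every library. In the authors' FPKM table, libraries of one treatment share nearly the same sorted values. SDs from it, here and for the CDK genes below, may thus understate the spread between libraries. The same limit holds for the limma p-values. With THZ1, CCNK had 37.4 ± 1.08 FPKM, CDK12 34.2 ± 0.826 and CDK13 8.76 ± 0.371. Per kilobase of the canonical transcripts of 8287, 9525 and 3524 bases, CDK12 had 19.3 ± 0.443 CPM with THZ1, CDK13 9.76 ± 0.377 and CCNK 33.4 ± 0.918, so that CCNK was above CDK12 with THZ1 on both scales. With DMSO the order depended on the measure, since the level of CCNK over CDK12 was 0.976 in FPKM and 1.55 per kilobase of these transcripts. These measures differ in the counting and scaling as well as in the length, and the cause of the gap was not tested. CDK13 was the lowest of the 3 on both scales. The exon overlap of CCNK with CCDC85C may affect the CCNK levels and the ratios with CCNK, since the strand setting of the counting is not given.

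Among 19 CDK genes in the deposited table, CDK12 ranked 12 from the top with DMSO and 8 with THZ1, and CDK13 ranked 18 and 16. CDK4, a G1 kinase, stood at the top with DMSO with 221 ± 11.9 FPKM, ahead of CDK6 (133 ± 18.5), CDK2 (123 ± 7.44), CDK9 (118 ± 3.41) and CDK1 (112 ± 2.13). With THZ1 the top was CDK9, the kinase of the elongation factor P-TEFb, with 184 ± 1.09 FPKM, followed by CDK11B (152 ± 5.72). With DMSO the neighbors of CDK12 in this order were CDK8 (29.0 ± 0.113) above and CDK14 (16.9 ± 1.58) below, and the SD ranges of CDK8, CDK7 (29.4 ± 3.20) and CDK5 (29.7 ± 3.93) overlapped that of CDK12. With THZ1 its neighbors were CDK6 (41.7 ± 1.30) above and CDK11A (33.1 ± 1.63) below, and only the latter overlapped it. With DMSO, CDK13 stood between CDK20 (11.9 ± 0.332) and CDK11A (1.30 ± 0.363), apart from both by more than their SDs. With THZ1 it stood between CDK8 (mean 9.75), whose SD range overlapped that of CDK13, and CDK14 (6.01 ± 0.425).

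**Figure D2:**
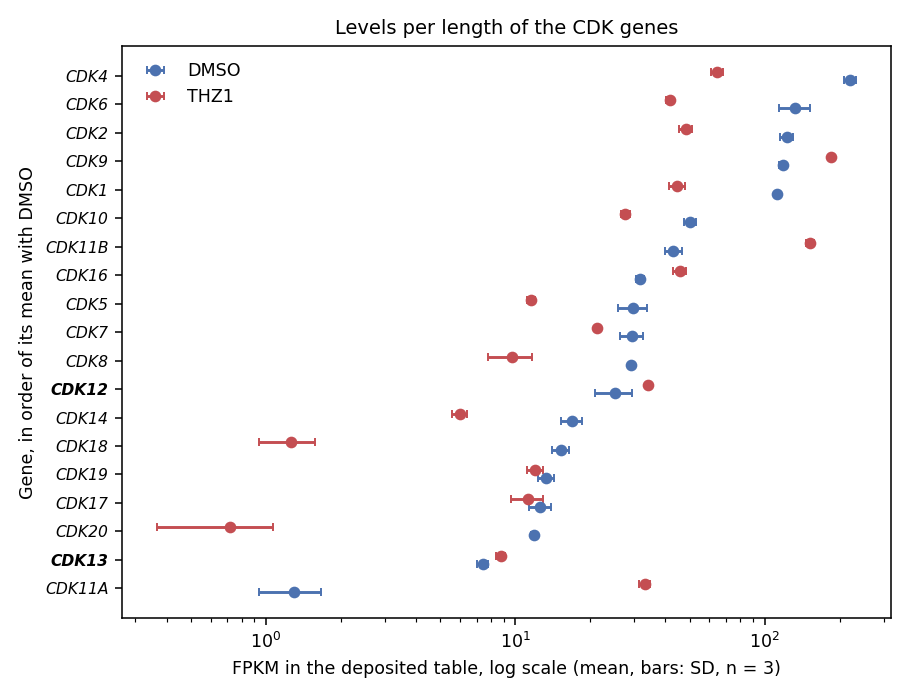
Mean FPKM of 19 CDK genes in the deposited table on a log axis, ordered from the lowest to the highest mean with DMSO, with blue points for DMSO, red points for THZ1 and bars for the SD of 3 libraries. CDK12 and CDK13, in bold, shift to the right with THZ1 from 25.1 to 34.2 and from 7.41 to 8.76 FPKM, while CDK4, CDK6, CDK2 and CDK1 shift to the left.

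Of 15 other transcriptional kinase and cyclin genes tested from a list of 16, 7 were higher (46.7%), 7 lower (46.7%) and 1, CDK19, was not called. These shares were near the 43.5% of all genes tested that were called higher and the 41.1% called lower. The list had a median log2 fold change of 0.10 against 0.03 over all genes tested. CCNQ was not matched to an identifier of the count table. The P-TEFb genes were higher, CDK9 by 0.87 (SE 0.07) and its cyclins CCNT1 and CCNT2 by 0.82 and 0.97. CDK11B and the cyclins L, which accompany the CDK11 kinases and splicing, were higher too, CDK11B by 1.99, CCNL1 by 1.21 and CCNL2 by 1.81. CDK11A rose from 1.19 ± 0.548 to 64.6 ± 3.47 CPM, a log2 fold change of 5.75, but it shares so many letters with CDK11B that the split of reads between these genes is uncertain. The genes of the CDK-activating kinase, the complex that THZ1 was made against, were lower, with −0.34 for CDK7 (adjusted p = 0.00812), −0.97 for CCNH and −0.93 for MNAT1. The genes of the Mediator kinase module, CDK8 and CCNC, were lower, with −1.34 and −1.10, whereas the CDK8 relative CDK19 had a log2 fold change of 0.10 (adjusted p = 0.364). CDK10 and CDK20 were lower, with −0.76 and −2.84. CDK7, in which THZ1 also binds a cysteine, fell from 25.5 ± 2.84 to 20.1 ± 0.231 CPM, a direction opposite to that of the other covalent targets CDK12 and CDK13. The call of CDK7 was lost with DESeq2 (adjusted p = 0.0597), with genes of at least 10 counts in every library (adjusted p = 0.0987) and with upper quartile factors in edgeR (log2 fold change −0.15, adjusted p = 0.236).

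Of 9 cell cycle and other CDK genes tested from a list of 11, 7 were lower, 1 was higher and 1 was not called, with a median of −1.20, beside 41.1% of all genes tested called lower. CDK1, CDK2, CDK4 and CDK6, the kinases that drive the cell cycle, had log2 fold changes of −1.20, −1.23, −1.56 and −1.53, and CDK5, CDK14 and CDK18 of −1.16, −1.07 and −2.65. CDK16 was higher, with 0.63 (adjusted p = 7.1e-09), a change between those of CDK12 and CDK13. CDK17 had 0.12 and was not called (adjusted p = 0.318). CDK3 and CDK15 held at most 4 and 1 counts in any library and were not tested. In the annotation PMEL overlaps CDK2, TSPAN31 overlaps CDK4, SLC4A2 overlaps CDK5 and RASA1 overlaps CCNH on the opposite strand, so reads of these genes could be shared.

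**Figure D3:**
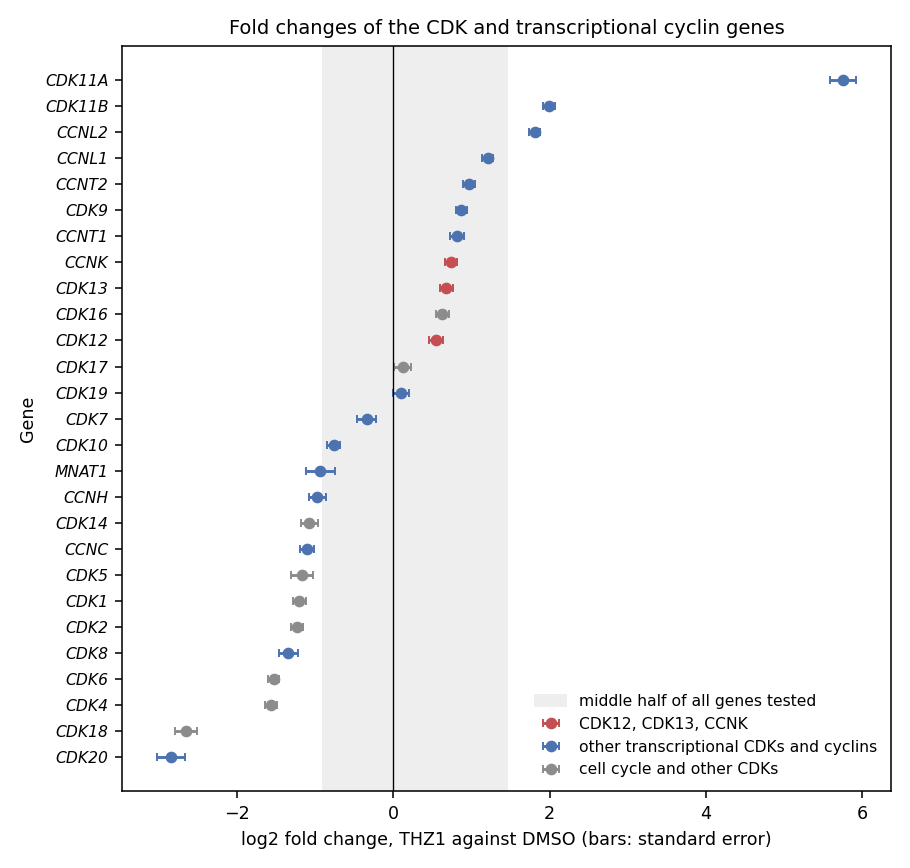
Log2 fold changes of THZ1 against DMSO for the 3 genes (red), the other transcriptional CDK and cyclin genes (blue) and the other CDK genes (grey) by edgeR, with bars for the SE and a band for the middle 50% of all genes tested. CDK12, CDK13 and CCNK sit at 0.55, 0.68 and 0.74, beside CCNT1 at 0.82 and CDK16 at 0.63 and inside the band.

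Genes of homologous recombination and the Fanconi anemia pathway were mostly lower, and whether this depends on CDK12 was not tested. Of 33 homologous recombination and Fanconi anemia genes, all tested, 24 were lower (72.7%), 5 higher (15.2%) and 4 not called, beside 41.1% of all genes tested called lower and 43.5% called higher. Their median log2 fold change was −1.12, against 0.03 over all genes tested. BRCA1, which guides repair by homologous recombination, fell from 98.0 ± 12.5 to 21.3 ± 1.32 CPM, which is −2.20 on the log2 scale (SE 0.10, adjusted p = 5.7e-19). FANCI and FANCD2, which form the central complex of the Fanconi anemia pathway, had log2 fold changes of −2.13 (adjusted p = 9.8e-22) and −1.32 (adjusted p = 3.6e-15). ATR, the kinase of the replication stress response, fell from 48.5 ± 4.63 to 25.8 ± 2.87 CPM, which is −0.91 on the log2 scale (adjusted p = 2.2e-09). The lowest gene of the list was the helicase BLM, with −2.45, and the highest was the DNA damage adaptor MDC1, with 1.45, which rose from 74.2 ± 6.66 to 202 ± 4.51 CPM. The other higher genes were PALB2, FANCE, RAD51C and ATRIP, and those not called were FANCB, FANCF, FANCM and TP53BP1, all named after their values were seen. In 7 of the 33 the log2 fold change was −1.5 or lower, a size at which 12.9% of all genes were called lower. On the opposite strand NBR2 overlaps BRCA1, POLG overlaps FANCI, FANCD2OS overlaps FANCD2 and TUBB overlaps MDC1.

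The lists that act on the product of these kinases had medians of opposite sign. Of the 6 genes for CTD phosphatases, which remove the phosphates, 4 were lower (66.7%), 1 higher (16.7%) and 1 not called. Their median log2 fold change was −0.92. Over all genes tested, 41.1% were called lower and 43.5% higher, and lists this small give only rough shares. The lowest was CTDSPL, which fell from 8.47 ± 0.868 to 2.29 ± 0.289 CPM (log2 fold change −1.88), and the highest was CTDSP2, at 0.31 (adjusted p = 2.4e-04). The call of CTDSP2 was lost with library sizes alone and with limma on the FPKM values. Of the 12 genes for proteins that bind the phosphorylated CTD, 8 were higher, 3 lower and 1 not called, with a median of 0.51. PCF11, a cleavage and termination factor, was the highest and rose from 83.6 ± 5.73 to 656 ± 19.3 CPM, which is 2.97 on the log2 scale (SE 0.07, adjusted p = 6.5e-26), and PCF11-AS1 overlaps it on the opposite strand.

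**Figure D4:**
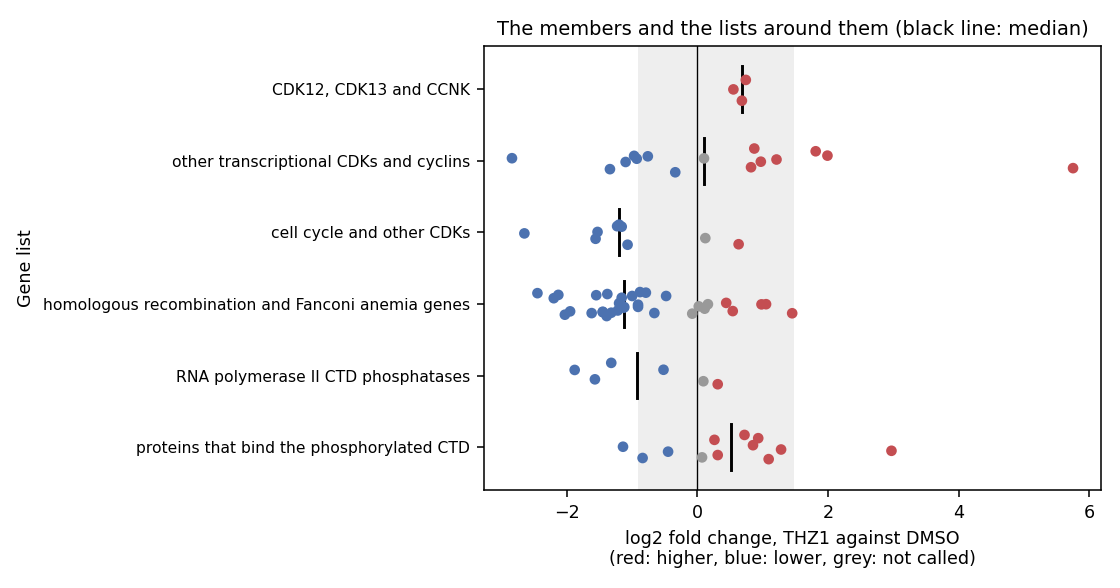
Log2 fold changes of THZ1 against DMSO by edgeR for each gene of the 3 members and the 5 lists, with red points for genes called higher, blue for lower and grey for not called, a black line at each median and a band for the middle 50% of all genes tested. The homologous recombination and Fanconi anemia genes lie mostly below 0 around a median of −1.12, while the members lie between 0.55 and 0.74.

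The genes whose profiles over the 6 libraries were most like those of the members were taken by the root mean square difference between gene-centered log2 CPM, among 9979 genes with a symbol and a mean of at least 10 CPM. With 2 groups such likeness mostly follows the fold change. Nearest to CDK12 were LNPEP (difference 0.040), ADGRF3 (0.045) and PLEKHG2 (0.048), which like CDK12 were spread more widely with DMSO. LNPEP had 39.9 ± 6.45 CPM with DMSO and 59.3 ± 3.64 with THZ1. Among the genes nearest to CDK13 were PAN2 (0.031) and NDOR1 (0.032), and nearest to CCNK were MIEF1 (0.037), MLEC (0.037) and SAR1B (0.040). The members were not each other's nearest genes. The difference was 0.121 between CDK12 and CDK13, 0.145 between CDK12 and CCNK and 0.092 between CDK13 and CCNK. Of the 9979 genes, 133 were nearer to CCNK than CDK13 was, the fewest for any pair. The most were 573 genes nearer to CCNK than CDK12 was.

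**Figure D5:**
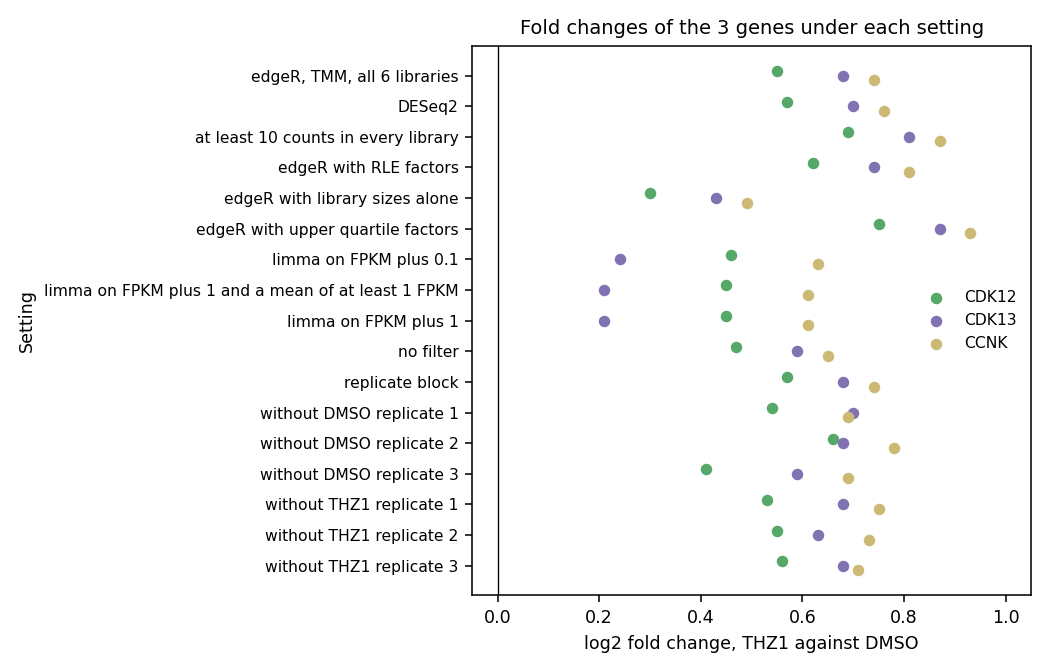
Log2 fold changes of CDK12 (green), CDK13 (purple) and CCNK (yellow) under the edgeR fit with TMM and all 6 libraries and under 16 other settings. All points lie above 0, from 0.21 for CDK13 in the deposited FPKM values to 0.93 for CCNK with upper quartile factors, and CDK12 ranges from 0.30 to 0.75.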

How the data were processed

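RNA was isolated from NALM6 cells with TRIzol, and per the labels and the methods the authors filtered the reads, mapped them to GRCh37 with STAR and deposited raw counts per gene from htseq-count. The authors' second table holds FPKM values from RSEM for 16730 genes. Its deposited values are on a log2 scale and were read as log2(FPKM + 1), and libraries of one treatment share nearly the same sorted values, a step not given in the sources used here. The annotation and strand setting are likewise not given. The 3 columns of the authors' own comparison (a p-value, a fold change and an FDR) were not used.

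Genes were filtered with edgeR's filterByExpr (minimum count 10, minimum total 15), scaled by TMM and tested by the quasi-likelihood test with Benjamini-Hochberg adjustment, two-sided, called at an adjusted p below 0.05. Standard errors (SE) were derived from the F statistic of each gene, and 95% intervals are 1.96 standard errors. Ratios within a library (0.5 added to each count) were compared by exact permutation. The rule for the members names 3 genes and uses no measured value, but members and lists were chosen with earlier results of these data known. Named were the members, CDK7, all genes of both CDK lists, the extremes and untested genes of the other lists, BRCA1, ATR, FANCI, FANCD2 and 3 genes most like each member. Some genes that this rule names are not reported here. Symbols, coordinates and coding sequences are from GENCODE 44 on GRCh37 (16092 of 16622 identifiers matched), and promoters, found for all 3 members, from RefSeq. A floor of 3 counts was 0.246 to 0.253 CPM with DMSO and 0.394 to 0.415 with THZ1, which covers counting error only. Protein sequences were not used here. FPKM were taken back to a linear scale for levels, and limma was run on the log2 values, as the files hold log2 values where plain FPKM had been planned for. R 4.3.3, edgeR 4.0.16, limma 3.58.1, DESeq2 1.42.0, Python 3.11.15, scipy 1.17.1 and pandas 2.3.3 were used. Alternatives were other scalings, DESeq2, other filters, a replicate block, each library left out, the FPKM table and a fold threshold of 1.5.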

Additional observations from a re-analysis of the deposited data

How the results depend on the processing

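CDK12, CDK13 and CCNK kept their direction and an adjusted p below 0.05 under each of 16 alternatives, with adjusted p-values from 2.3e-13 to 0.0241, 2.2e-13 to 0.0326 and 2.1e-19 to 8.9e-04. Leaving out single libraries gave log2 fold changes from 0.41 to 0.66 for CDK12, from 0.59 to 0.70 for CDK13 and from 0.69 to 0.78 for CCNK. Same-numbered libraries did not deviate together (correlations of −0.004, 0.000969 and 0.0206), and DMSO replicate 1 correlated best with THZ1 replicate 2. The replicate block gave 0.57, 0.68 and 0.74, the ratios changed by 0.11, 0.17 and 0.06 with it, and the calls over all genes went from 14050 to 13967. In FPKM the change of the CDK13 to CDK12 ratio was −0.22 and that of the CCNK to CDK13 ratio 0.39, and the cause was not tested. With DMSO the level of CCNK over CDK13 was 3.26 in FPKM and 3.66 per kilobase of merged exons. Per kilobase of the canonical transcripts, a choice made after seeing the data, CDK13 over CDK12 was 0.471 in place of 0.30, and CCNK over CDK12 1.55 in place of 0.976.

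A threshold of 1.5 on the absolute log2 scale by its construction calls fewer genes. Over all genes tested, 24.6% were then called higher and 12.9% lower. Of 15 transcriptional CDK and cyclin genes 3 were higher and 1 lower, and of 9 other CDK genes 0 were higher and 3 lower. Of 33 homologous recombination genes 0 were higher and 7 lower. Among 6 phosphatases 0 were higher and 2 lower, and among 12 CTD-binding genes 1 was higher and 0 lower. With genes of at least 10 counts in every library and with upper quartile factors, 2 other CDK genes and 2 phosphatases were higher, in place of 1 each. With library sizes alone, and with limma on FPKM at each pseudocount and filter, 0 phosphatases were higher. Of the other named genes, CDK7 and CTDSP2 lost their calls under some settings, as given with them. CDK19 and CDK17, not called, changed sign with library sizes alone (−0.15 and −0.13) and with limma on FPKM plus 0.1 (−0.15 each) and plus 1, with either filter (−0.14 each), and both were called higher under the 10-count filter (0.23 and 0.26) and with upper quartile factors (0.29 and 0.32). Depth limits the precision through the counts, which were 630 to 1561 per library for the 3 genes.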
